A study of Daphnia magna with 12 samples.

Results

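Old reproducing females of the water flea Daphnia magna were compared with young reproducing females, so that age differed while both groups were producing offspring. The comparison used 8 of the 12 libraries of the study, taken by their labels: 4 from old, reproducing females aged 130 to 170 days, and 4 from young, reproducing females aged 20 days. The other 4 libraries came from old, non-reproducing females aged 130 to 170 days. They were set beside the 2 groups where a value is given for them, and they shared in the estimate of the spread. All the females belonged to 1 clone, GB-EL75-69, were kept singly in ADaM medium, and were fed the green alga Scenedesmus acutus, with no treatment other than age. As tissue the submitters give the whole body, somatic. The labels do not say whether a library held 1 female or several, so p-values measure only the spread between these libraries. Libraries were numbered in 1 block per group, and an effect of that order and an effect of age cannot be told apart.

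Daphnia magna is a cyclical parthenogen: females produce clonal daughters, carry each clutch in a brood chamber under the carapace, and release it around the adult moult. Moulting and reproduction therefore run as 1 repeating cycle, and yolk proteins for the eggs are made outside the oocyte and taken up by it. Because all animals here shared a genotype, differences between libraries did not include differences between genotypes. In whole-body RNA, fewer cells of a type and less RNA per cell cannot be told apart. The gene models carry identifiers that name the gene predictor, the contig of the assembly, a numbered segment of that contig and a serial number. None of these identifiers could be paired with a gene name, so genes are described by level, length and place rather than by function. Neither the lipid and protein metabolism of the study's title nor markers of tissues were examined here.

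Total counts ranged from 16015869 to 25659597 over the 12 libraries, and 10987 of 21456 gene models passed the filter on low counts. In a principal component analysis of the 8 libraries the first component held 37.3% of the variance and the next 28%. On the first component the old reproducing libraries lay at 5.69, 20.5, -1.04 and 66.9, against 11.2, -91.7, 29.01 and -40.5 for the young libraries. The groups overlapped on both components. Young replicate 2 on the first component and young replicate 1 on the next lay farthest out.

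In old reproducing females 308 genes rose and 8 fell relative to young females, at an adjusted p under 0.05 in edgeR's quasi-likelihood test. These were 2.8% and 0.0728% of the genes tested, and 2.88% together. At an adjusted p under 0.01 the call stood for 126 higher and 2 lower genes, 1.17% of those tested. The 308 higher genes had a median log2 change of 1.45, with quartiles of 1.10 and 2.22. Of them 47 rose by less than 2-fold, 158 by 2-fold to 4-fold, 84 by 4-fold to 16-fold and 19 by more. In 19 of the higher genes the young libraries were at or under the floor of 3 counts. With those genes set to their bounds, 11 genes lay past 16-fold and the median was 1.45 again. The 8 lower genes had a median log2 change of -1.46. Across all genes tested the median was -0.03, and 83.8% changed by less than 2-fold.

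The 4 old reproducing libraries and the 4 young ones did not overlap for 304 of the 308 higher genes and for all 8 lower genes. Over all genes tested, 752 were higher in every old reproducing library than in any young one, which is 6.84%, and 168 were lower, which is 1.53%, or 8.37% together. At an unadjusted p under 0.05, edgeR gave 976 higher genes (8.88%) and 469 lower genes (4.27%). Without young replicate 3 those counts were 972 higher and 1096 lower, so at this looser limit the balance of directions turned with 1 library. Without young replicate 1 they were 1101 higher and 880 lower. Among the genes past the adjusted limit, higher genes were 97.5% of calls in edgeR and 86.0% in DESeq2, which gave 518 higher and 84 lower genes. Leaving out 1 of the 8 libraries gave 192 to 257 higher and 2 to 12 lower genes. The smallest of these counts, 192 and 2, came without old reproducing replicate 3, and the lower genes numbered 4 without replicate 1 and 5 without replicate 4 of that group. The last gene within the limit had an adjusted p of 0.0499 and a log2 change of 1.38, and the first beyond it had 0.0502 and 3.27 (edgeR).

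**Figure D1:**
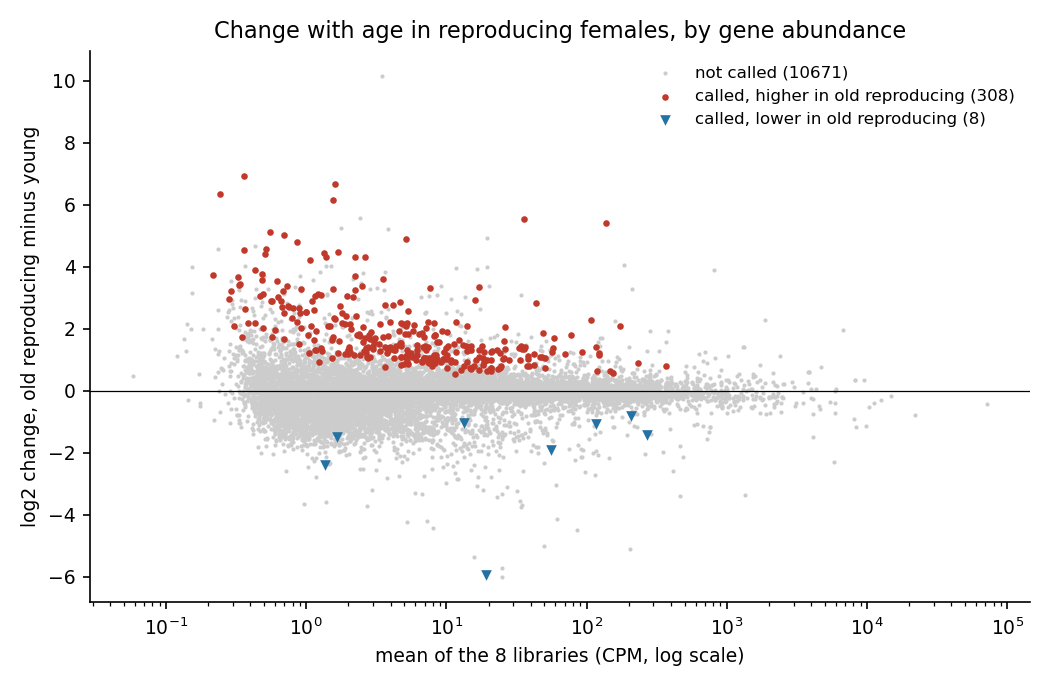
Log2 change of each tested gene, old reproducing minus young (vertical axis), against mean CPM over the 8 libraries (horizontal log axis), 1 point per gene, with the 308 higher and 8 lower genes coloured. The called genes lie almost entirely above 0, and none is among the most abundant genes at the right.

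The firmest higher genes, those with the smallest p, had log2 changes from 1.10 to 4.48. The first of them was maker-000001F-snap-gene-48.110, a model of 3217 nucleotides (nt). It had 37.9, 42.1, 48.5 and 39.2 counts per 1000000 (CPM) in old reproducing libraries, against 10.3, 11.2, 9.85 and 8.94 CPM in young libraries. Every old reproducing library was above every young one, and the log2 change was 2.06 (SE 0.14, edgeR adjusted p = 8.19e-05). A model of 921 nt on contig 000022F varied little within each group. It had 52.2, 50.3, 48.5 and 48.6 CPM in old reproducing libraries, against 18.9, 17.3, 17.8 and 18.4 CPM in young libraries. Its log2 change was 1.46 (SE 0.10, edgeR adjusted p = 8.19e-05), with a wide gap between the groups.

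The third, a model of 2754 nt on contig 000038F, had the highest read abundance of the 10 firmest genes. It had 131.3, 181.9, 223.7 and 176.9 CPM in old reproducing libraries, against 32.4, 33.2, 41.0 and 41.1 CPM in young libraries (log2 change 2.27, SE 0.17, edgeR adjusted p = 9.6e-05). All 10 of these genes were separate between the groups. The largest change among them was that of a 2405 nt model on contig 000007F. It had 2.29, 4.27, 3.55 and 2.82 CPM in old reproducing libraries, against 0.136, 0.0524, 0.186 and 0.180 CPM in young libraries, where it never had more than 5 counts. All 10 were called in each of the 18 alternatives that kept the limit of 0.05.

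**Figure D2:**
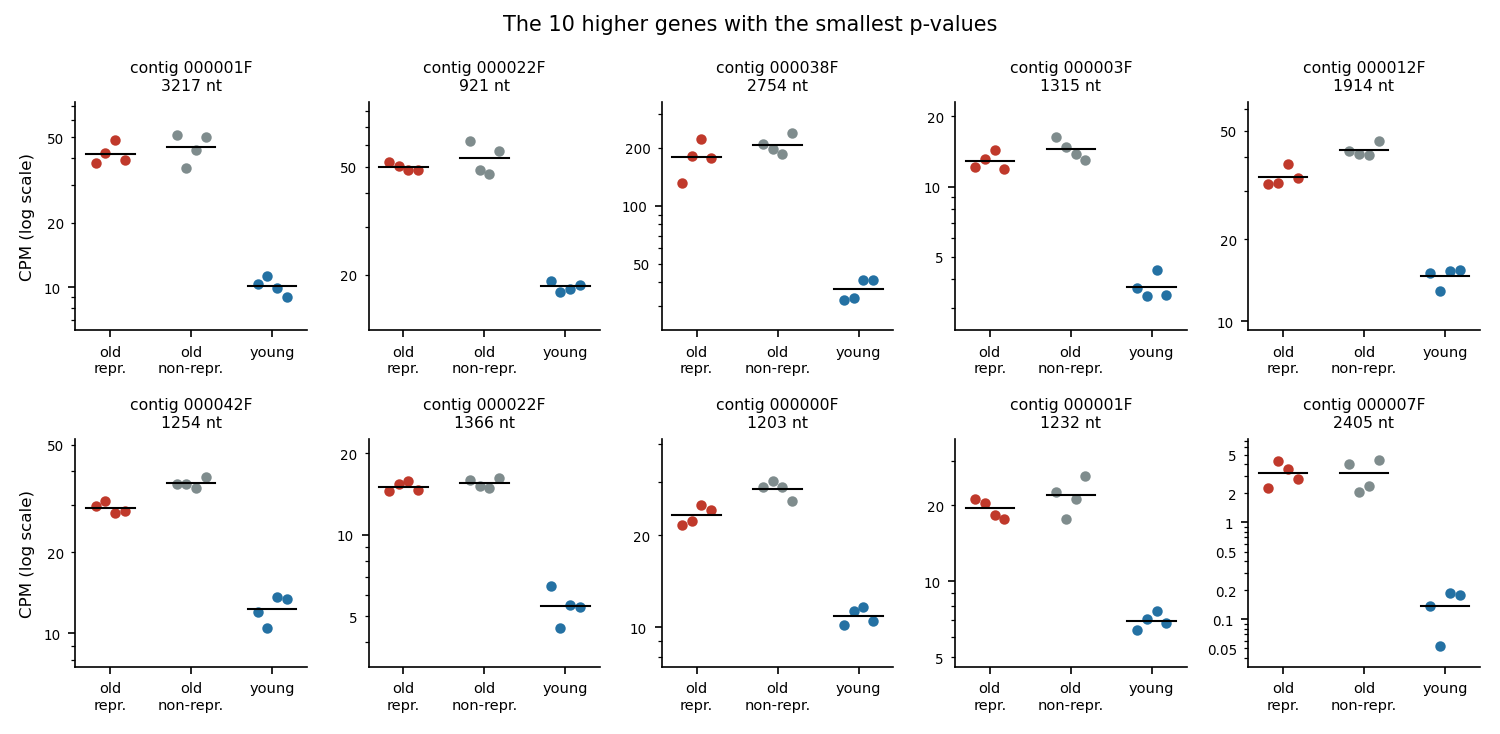
CPM (log axis) of the 10 higher genes with the smallest p, 1 panel per gene named by contig and length, with 1 point per library and a bar at the group mean. In every panel the old reproducing points lie above all young points, with log2 changes from 1.10 in the 1203 nt gene to 4.48 in the 2405 nt gene.

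Higher genes were also ranked by read share, among those whose groups did not overlap, so their separation was fixed by the choice. The first was maker-000035F-snap-gene-5.102, a model of 1820 nt. It had 525, 417, 532 and 407 CPM in old reproducing libraries, against 244, 271, 289 and 275 CPM in young libraries. Its log2 change was 0.80 (SE 0.13, edgeR adjusted p = 0.00653). It was called in all 18 alternatives, unlike the 9 genes that followed it by read share. A 2976 nt model on contig 000074F had 263, 293, 360 and 206 CPM in old reproducing libraries, against 112, 17.4, 56.6 and 76.7 CPM in young libraries. Its log2 change of 2.10 (SE 0.45, edgeR adjusted p = 0.0296) was called in 9 of 18 alternatives. A 1221 nt model on contig 000023F had 369, 365, 258 and 227 CPM in old reproducing libraries, against 151, 198, 140 and 168 CPM in young libraries (log2 change 0.89, SE 0.18, edgeR adjusted p = 0.0234). It lost its call without old reproducing replicate 1 or 2, or young replicate 1, 3 or 4. A pair of models on contig 000022F, of 3884 nt and 378 nt, had counts that differed by 8.11% in all and may share reads. Their log2 changes of 0.57 and 0.64 stood in 4 of the 18 alternatives. The other genes of this ranking were models of 7125, 3522, 3287 and 936 nt, and a 3137 nt model given below with the largest changes. The first 4 of these had log2 changes from 0.65 to 1.41 and were called in 6 to 11 of 18 alternatives.

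The largest changes were also ranked among higher genes without overlap that averaged 10 CPM or more in old reproducing libraries, a limit set on the group where they are high. A 989 nt model on contig 000011F came first, with a log2 change of 5.53 (SE 0.75, edgeR adjusted p = 0.00299). It had 119, 18.7, 20.8 and 122 CPM in old reproducing libraries, against 1.02, 1.83, 0.620 and 2.44 CPM in young libraries. Replicates 1 and 4 of the old reproducing group were high and replicates 2 and 3 were lower, yet all were above every young library. A 3137 nt model on contig 000038F had 875 CPM in old reproducing replicate 1, and 69.6, 70.3 and 59.5 CPM in the other old reproducing libraries. The young libraries had 4.35, 12.3, 4.83 and 3.63 CPM (log2 change 5.42, SE 1.08, edgeR adjusted p = 0.0205). Without old reproducing replicate 1 the log2 change was 3.41, still called, and the other old reproducing libraries were also above all young ones. The call was lost without young replicate 1, 3 or 4, with all gene models kept, with 8 libraries fitted and with the replicate block, and DESeq2 gave no adjusted p. It stood in 11 of 18 alternatives.

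The third by size, a 1694 nt model on contig 000028F, had 33.7, 10.6, 7.10 and 4.27 CPM in old reproducing libraries, against 1.29, 1.62, 1.301 and 1.36 CPM in young libraries. Replicate 1 was the highest of the old reproducing libraries, and the log2 change was 3.31 (SE 0.74, edgeR adjusted p = 0.0369), or 2.39 and no longer called without that replicate. It was called in 7 of 18 alternatives and lost in 7 of the 8 fits without 1 library. A 3218 nt model on contig 000013F had 70.1, 26.5, 82.6 and 125.8 CPM in old reproducing libraries, against 11.8, 12.1, 7.19 and 11.5 CPM in young libraries (log2 change 2.84, SE 0.43, edgeR adjusted p = 0.00518). A 1488 nt model on contig 000000F had 45.4, 39.6, 10.3 and 18.2 CPM in old reproducing libraries, against 2.92, 6.71, 3.47 and 1.90 CPM in young libraries (log2 change 2.92, SE 0.57, edgeR adjusted p = 0.0173). It was called in 15 of 18 alternatives and lost its call without young replicate 1, 3 or 4. In these last 2 genes the old reproducing libraries differed among themselves by more than the young ones did in CPM, without overlap between the groups.

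Of the 8 lower genes, maker-000028F-snap-gene-5.63, a model of 1320 nt, fell the most. It had 0.491, 0.831, 0.710 and 0.403 CPM in old reproducing libraries, against 33.9, 61.4, 29.6 and 26.9 CPM in young libraries. The gap between the groups was many times the spread within them, with a log2 change of -5.93 (SE 0.46, edgeR adjusted p = 0.000119). The next by p was augustus_masked-000011F-processed-gene-27.51, a model of 2304 nt with 25.4, 26.2, 30.9 and 12.4 CPM in old reproducing libraries, against 89.4, 53.7, 101.6 and 108.5 CPM in young libraries. Its log2 change was -1.89 (SE 0.30, edgeR adjusted p = 0.00542), and old reproducing replicate 4 had the lowest value. These 2 genes were the lower calls in all 18 alternatives.

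The other 6 lower genes had log2 changes from -2.41 to -0.80, and each lost its call without at least 1 library. The 2869 nt model on contig 000035F had the most reads of them, with 205.6, 140.2, 132.9 and 108.5 CPM in old reproducing libraries, against 456.3, 401.9, 352.9 and 372.1 CPM in young libraries (log2 change -1.43, SE 0.31, edgeR adjusted p = 0.0293). Its groups did not overlap, but the call was lost without any 1 of 7 of the 8 libraries. A 4653 nt model on contig 000036F had 76.3, 77.9, 71.5 and 74.4 CPM in old reproducing libraries, against 248.6, 123.8, 128.9 and 131.5 CPM in young libraries (log2 change -1.08, SE 0.24, edgeR adjusted p = 0.0325). Young replicate 1 stood above the other young libraries there, and the 4 old reproducing values were close together.

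**Figure D3:**
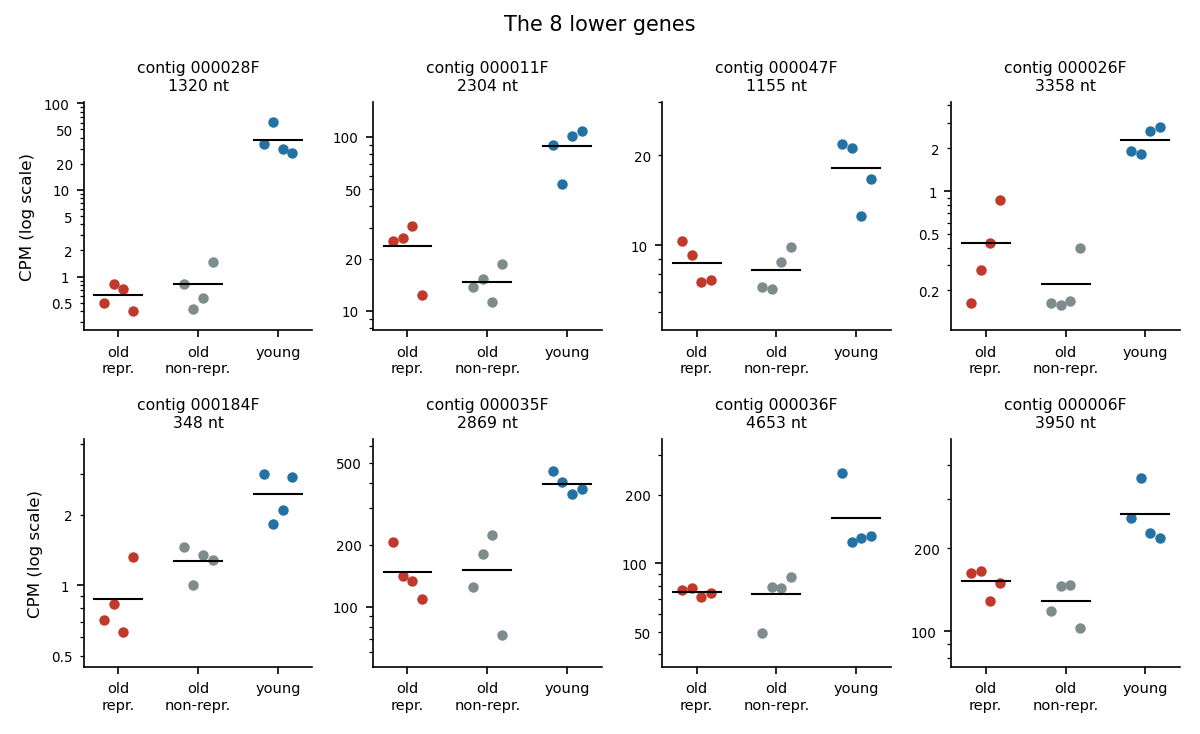
CPM (log axis) of the 8 lower genes, 1 panel per gene named by contig and length, with 1 point per library and a bar at the group mean. All 4 old reproducing points lie under all young points in each panel, by the most in the 1320 nt gene on contig 000028F.

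The called genes together made up a small part of the RNA. The 308 higher genes held 0.732, 0.615, 0.775 and 0.684% of the counts in old reproducing libraries, against 0.237, 0.267, 0.262 and 0.295% in young libraries. The 8 lower genes held 0.0478, 0.0422, 0.0422 and 0.0385% in old reproducing libraries, against 0.0966, 0.103, 0.0779 and 0.0955% in young libraries. These sums follow from how the genes were chosen and carry no test. Per length, the higher genes had a median level of 5.83 CPM per kilobase in old reproducing libraries and 2.07 in young libraries, and all tested genes had 5.04 and 4.87. The median SD of log2 CPM over the called genes was 0.28 among old reproducing and 0.34 among young libraries, against 0.30 and 0.41 over all genes tested. The test favours genes with a wide gap and a small spread, so these levels and SDs also follow in part from the choice.

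Calls were most frequent in the middle of the range of levels. The tested genes were put in 10 bins of equal size by mean CPM per kilobase. In bin 5, counted from the lowest, 5.37% were called, between 2.75 and 5.06 CPM per kilobase. In the lowest bin 2.46% were called, and in the highest 1.00%. The median SD of log2 CPM among young libraries was 0.93 in the lowest bin and 0.24 in bin 7, so the size of change that could be called differed along this axis. It was 0.23 in bin 9, where 1.09% were called, and 0.29 in the highest bin. Shorter models were called more often. The called higher genes had a median length of 1319.5 nt, against 2204 nt for all genes tested. In 10 such bins of length, 4.91% were called among the shortest models (141 to 603 nt), 5.46% in bin 3 and 0.728% among the longest (5947 nt or more). Whether spread, read count, length or level lay behind these shares was not tested.

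**Figure D4:**
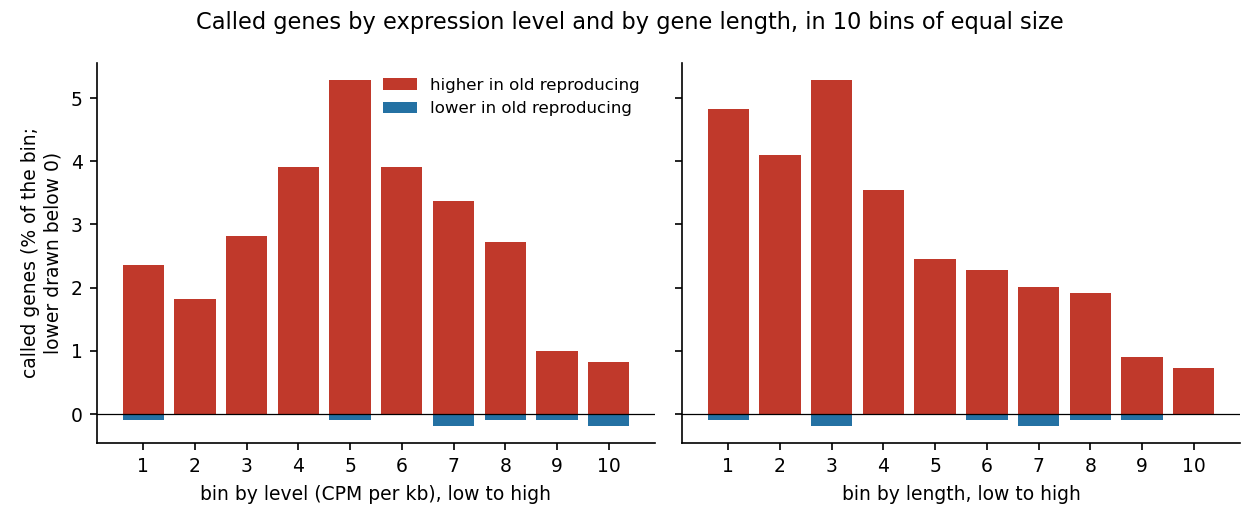
Percent of genes called in each of 10 bins of equal size, by mean level in CPM per kilobase over the 8 libraries (left) and by model length (right), with higher calls above 0 and lower calls below. The shares reach 5.37% in bin 5 of level and decline to 0.728% for the longest models.

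Gene models of a few places on the assembly held several calls each. The calls lay on 78 of the 183 contigs with a tested gene. Among the 55 contigs with at least 30 tested genes the median share called was 2.43%, and 10 had none. The highest share was 12.5% on contig 000027F, where 5 of 40 tested genes rose, followed by 11.5% on contig 000017F, 6 of 52. Contig 000000F, with 877 tested genes, had the most calls, 24 of 316. In the finer division into numbered segments, 60 of 1227 segments held at least 2 called genes, and these segments held 142 of the 316 calls, or 44.9%. Some neighbouring models had nearly equal counts, which may be reads counted for both. Where called models of 1 segment differed by at most 20% in counts they were also taken as 1 gene, a choice made after seeing the data. Of the 316 called models 28 (8.86%) were in groups of near-equal models at this limit, against 2049 of all 10987 tested (18.6%). Merging left 301 distinct calls, of which 120, or 39.9%, shared a segment with another. A segment held a median of 8 tested genes, so some sharing arises from segment size alone. The share that calls scattered over the tested genes would give was not computed, so neither the 44.9% nor the 39.9% shows that calls cluster.

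In 5 segments 4 models were called. On contig 000191F, segment 0, 4 of the 5 tested models rose, with log2 changes from 1.60 to 2.13. Their summed level was 56.5, 62.6, 68.5 and 40.6 CPM in old reproducing libraries, against 24.6, 13.2, 18.4 and 13.1 CPM in young libraries. On contig 000070F, segment 3, 4 of 7 rose, with 12.3, 12.3, 12.3 and 8.59 CPM in old reproducing libraries, against 1.97, 2.93, 4.15 and 1.87 CPM in young libraries. These 4 models form 2 pairs with near-equal counts, so the sum may count reads again and only 2 genes may be distinct. On contig 000007F, segment 27, 4 of 12 rose. In 3 of them the log2 changes were 3.02 to 4.48, and the other, of 393 nt, had at most 2 counts in any young library, so no fold is given. The 2405 nt and 1851 nt models there had near-equal counts, which leaves 3 distinct genes. The sum of all 4 was 6.11, 9.62, 8.96 and 7.44 CPM in old reproducing libraries, against 0.408, 0.367, 0.496 and 0.467 CPM in young libraries. On contig 000011F, segment 25, 4 of 19 rose, with log2 changes from 1.80 to 5.53. Their sum was 309, 129, 125 and 266 CPM in old reproducing libraries, against 48.7, 28.9, 33.5 and 48.9 CPM in young libraries. The 2013 nt and 1230 nt models there had near-equal counts, which leaves 3 distinct genes. On contig 000047F, segment 4, called genes moved both ways among 22 tested: 3 rose and 1 fell. The 1317 nt model there had 34.1, 47.0, 51.5 and 47.1 CPM in old reproducing libraries, against 16.3, 19.2, 27.8 and 26.2 CPM in young libraries. The 1155 nt model of the same segment had 10.4, 9.30, 7.54 and 7.67 CPM in old reproducing libraries, against 21.8, 21.2, 12.6 and 16.7 CPM in young libraries.

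For the genes called between old reproducing and young females, the levels in old non-reproducing females are set beside them. The comparison of each old group with young females uses the same 4 young libraries, so the values are given side by side only. The median level of the 308 higher genes was 7.18 CPM in old reproducing, 7.60 CPM in old non-reproducing and 2.38 CPM in young females. For the 8 lower genes it was 16.2 CPM in old reproducing, 11.5 CPM in old non-reproducing and 63.1 CPM in young females. Set directly against each other in the same edgeR fit, old reproducing and old non-reproducing females differed in 0 of the 316 genes, and in 0 of all 10987 genes tested. At an unadjusted p under 0.05 they differed in 19 of the 316 genes, or 6.01%, against 8.06% of all genes tested. The 316 genes were chosen with the same old reproducing libraries and a spread shared by all 12, so these shares are a description. Of those 19 genes 5 were higher in old reproducing females and the others were lower. Over all genes tested, 324 of the 886 at that limit were higher in old reproducing females, so most were lower there too. DESeq2 called 6 of the 316 and 317 of all genes, and edgeR without old non-reproducing replicate 1 called 1 of them and 327 of all genes. A p that misses the limit does not show that the old groups were alike.

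Of the 316 genes, the 2 with the smallest unadjusted p between the old groups were higher in the reproducing one. The 1488 nt model on contig 000000F averaged 28.4 ± 16.8 CPM in old reproducing, 4.31 ± 2.19 CPM in old non-reproducing and 3.75 ± 2.08 CPM in young females (SD, n = 4 each), with an edgeR adjusted p of 0.157 between the old groups. In the 3137 nt model on contig 000038F, old non-reproducing libraries had 8.04, 29.7, 19.2 and 7.15 CPM. All of these lay under the old reproducing libraries and 2 lay under the highest young library, and the edgeR adjusted p between the old groups was 0.186. These 2 genes were not among the 10 firmest. A gene that was among those 10 was higher in all old non-reproducing libraries than in any old reproducing one. This 1914 nt model on contig 000012F had 31.9, 32.2, 37.8 and 33.6 CPM in old reproducing libraries and 42.2, 41.1, 40.7 and 45.8 CPM in old non-reproducing libraries, against 15.0, 12.8, 15.3 and 15.4 CPM in young libraries. Its edgeR adjusted p between the old groups was 0.304.

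Each library was also held against genes called without it. The genes were called from the remaining libraries, and the left-out library was placed on its own group's side of the midpoint between the group means, or on the other side. Old reproducing libraries lay on their own side for 92.5, 88.2, 97.9 and 93.4% of those genes, and young libraries for 83.8, 93.6, 91.4 and 93.5%. Over all tested genes the same shares were 57.6, 61.1, 55.1 and 57.3% for old reproducing libraries and 40.5, 60.8, 42.9 and 58.9% for young libraries. Young replicate 1, which stood apart on the second component, had the lowest share of called genes on its own side. Genes of 1 library are not independent, and these shares are a description.

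Counts were less concentrated in the most abundant genes in old reproducing females. The top 10 genes of each library took up 18.7, 17.7, 17.2 and 14.7% of its counts among old reproducing females, against 19.6, 20.9, 22.2 and 23.4% in young females. The difference was -4.46 percentage points, with no overlap between the groups (two-sided exact permutation test, p = 0.0286, and 0.0429 adjusted over 3 measures). The smallest p that 4 libraries against 4 allow is 0.0286. For the 50 most abundant genes the difference was -4.67 percentage points, little more than for the top 10. The number of genes that together held 50% of the counts was 154, 171, 195 and 210 in old reproducing females, against 136, 142, 135 and 132 in young females. The groups did not overlap, and the means differed by 46.2 genes (exact permutation p = 0.0286, adjusted 0.0429). The number of gene models with a read was 15765 ± 654 in old reproducing and 15002 ± 800 in young females (SD, n = 4 each), and the groups overlapped (exact permutation p = 0.2). The old non-reproducing libraries had top 10 shares of 12.9, 17.97, 18.9 and 11.4%, a wider range than either other group.

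None of the 100 most abundant genes, at 1312 CPM or more, was called in edgeR. Their median log2 change was -0.19 and 62 were negative. In none of them did all old reproducing libraries lie above all young ones, and in 5 they lay below. Over all genes tested 2.88% were called, 6.84% lay above and 1.53% below in this way, with a median log2 change of -0.03. The 0 calls among 100 genes are thus near the share over all genes. The gene with the most reads, a 4653 nt model on contig 000016F, had 74291, 69845, 61320 and 38287 CPM in old reproducing libraries, against 44102, 84777, 110416 and 91621 CPM in young libraries. The groups overlapped, and its log2 change of -0.44 (SE 0.58) had an edgeR adjusted p of 0.778.

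**Figure D5:**
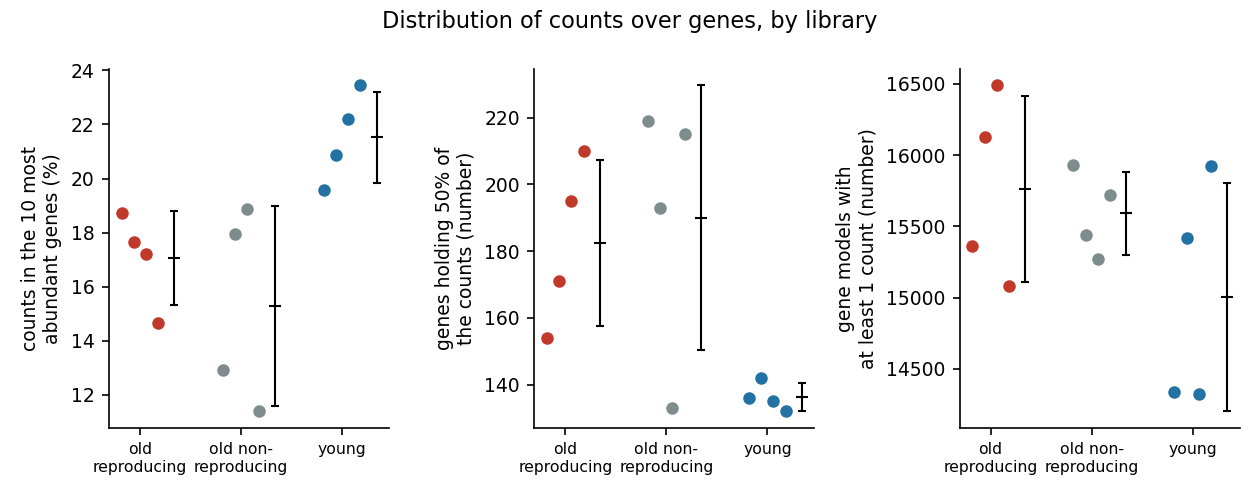
Share of counts in the 10 most abundant genes, number of genes holding 50% of the counts, and number of gene models with a read, 1 point per library with mean and SD for each group. The old reproducing points lie apart from the young points in the first pair of measures and overlap them in the number of models with a read.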

How the data were processed

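RNA was extracted with Qiagen RNeasy and sequenced from directional NEBNext Ultra II libraries, per the labels. Raw counts of reads for each gene model were deposited by the authors, per the file headers. They also deposited RPKM values, which equal those counts divided by library total and model length to within 1.26e-06%. Lengths were recovered from that ratio, and CPM per kilobase was computed from them. The submitters' processing notes name STAR and SAMtools. Settings, the counting program, use of strand and the genome build are not given in the sources used here, so overlapping or antisense models may share reads.

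Counts of all 12 libraries were fitted in edgeR 4.0.16 (R 4.3.3) after filterByExpr by group, with TMM factors, robust quasi-likelihood dispersion and 1 mean per group. Tests were two-sided and adjusted by Benjamini-Hochberg over 10987 genes, and a gene is called at an adjusted p under 0.05. SE is the log2 change over the square root of F. The fit was also run on counts simulated from its own dispersions, with changes balanced in direction and no outlying library. That setting does not probe the imbalance of calls or the libraries that stood apart here. The common biological coefficient of variation was 0.456. Errors given are the spread between libraries, which includes counting error. The floor of 3 counts covers counting error only. All pairs of replicates differed by more than sampling noise. DESeq2 1.42.0, limma 3.58.1 on RPKM, other scalings, filters and left-out libraries were alternatives. None of the identifiers matched a reference table of gene names.

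Genes described were, among calls, the 10 higher ones by mean CPM without overlap between groups, the 10 by smallest p, the 5 by log2 change at 10 CPM or more in old reproducing libraries without overlap, and the lower ones. At most 2 identifiers are given in each direction. Genes from other parts of the text (the 000047F segment and the most abundant gene) were picked after their values were seen. The comparison and its measures were chosen with earlier results of these data known.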

Additional observations from a re-analysis of the deposited data

Results flagged for a closer look

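In a group of 4 libraries, a value counted as far from the others when its gap to the nearest one was over 0.829 of the group's range (Dixon's 95% limit). Of 70 groups of values checked, 5 passed. About 1 in 20, or 3.5, would pass among independent normal values. Genes among these groups were chosen by their values in the same libraries, so 3.5 is only a rough guide. The 3137 nt gene on contig 000038F had 875 CPM in old reproducing replicate 1, against 59.5 to 70.3 CPM in the other old reproducing libraries. The same gene had 12.3 CPM in young replicate 2, against 3.63 to 4.83 CPM in the other young libraries. The 3218 nt gene on contig 000013F had 7.19 CPM in young replicate 3, where the other young libraries had 11.5 to 12.1 CPM. The 1914 nt gene on contig 000012F had 12.8 CPM in young replicate 2, where the others had 15.0 to 15.4 CPM. The 4653 nt gene on contig 000036F had 249 CPM in young replicate 1, where the others had 124 to 132 CPM.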

How the results depend on the processing

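No gene called in edgeR changed sign under any of the 18 alternatives at an adjusted p under 0.05, and 127 of 316 (125 higher, 2 lower) were called in all of them. A fit to the 8 libraries alone called 191 genes (187 higher, 4 lower), DESeq2 602 (518 higher, 84 lower), and a limit of 0.01 kept 128 (126 higher, 2 lower). Leaving out each library in turn gave 194 to 266 calls, 192 to 257 higher and 2 to 12 lower. The cause of these shifts was not tested. Other scalings gave 266 to 306 calls, other filters 267 and 274, and limma on RPKM 323 and 377. The scalings and RPKM placed the median of all tested genes between -0.07 and 0.11 on the log2 scale. Counting near-equal neighbouring models once, an alternative chosen after seeing the data, gave 301 calls at a 20% limit and 310 at 10%. Between the old groups, DESeq2 called 6 of the 316 genes, against 0 in edgeR, and edgeR without old non-reproducing replicate 1 called 1. Leaving out any of the other 7 libraries of the old groups gave 0, a range of 0 to 1. Without 1 library, the difference in the share of the top 10 genes ran from -5.10 to -3.66 points and that in genes holding 50% of counts from 37.1 to 55.8. There the smallest exact permutation p is 0.0571 (adjusted 0.0857), so these designs cannot reach 0.05.

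No pairing by replicate number was seen: correlations of the deviations of same-numbered libraries were -0.26, -0.04, -0.46 and 0.25, and not every library correlated best with its own number. So few correlations cannot exclude a pairing. With replicate number as a block, edgeR called 183 genes (178 higher, 5 lower). By exact sign flips over the same numbers the differences were -4.46 points and 46.2 genes, each with an adjusted p of 0.188, where 0.125 is the smallest raw p. The median young SD of log2 CPM was 0.93 in the lowest of 10 bins of level.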
